A study of Homo sapiens with 24 samples.

Results

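The small RNA machinery of human cells was followed here through 10 genes: AGO1, AGO2, AGO3 and AGO4, DROSHA and DGCR8, XPO5, DICER1 and TARBP2, and TNRC6A. A probe was assigned to one of them when its RefSeq accession mapped to the gene in the annotation of GRCh38.p14. The rule found all 10 genes, out of 36639 entries tested at 24 h and 37670 tested at 48 h. Of these entries, 19497 and 19380 have a RefSeq gene name, and each other entry is an unmapped identifier taken as its own gene. Shares of all genes given below are over all entries, named or not. The 10 genes are carried by 14 probes on either array version, and all 14 were above the background threshold at both time points. LNCaP cells, an established androgen-responsive prostate cancer line, were transfected with a scrambled control siRNA (si-SCRL), with si-A1 against the long non-coding RNA TAPIR-1 or with si-A2 against TAPIR-2. RNA was taken after 24 h and after 48 h from 4 biological replicates per siRNA, and every sample had a one-colour Agilent array to itself. All groups, the control included, therefore received a duplex siRNA by electroporation, and each target was hit with 1 siRNA only. The si-A2 replicate 2 of 48 h was left out because its array was dim, with a median intensity of 13.9 against 20.4 to 32.2 on the other arrays of that time point, so that 23 of the 24 arrays were used and si-A2 had 3 arrays at 48 h.

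These genes carry a microRNA from its transcript to its target, and an siRNA enters the same route near its end. In the nucleus DROSHA and its partner DGCR8 cut the primary transcript into a hairpin, which XPO5 (exportin 5) brings to the cytoplasm. There DICER1, with the double-stranded RNA binding protein TARBP2, cuts the hairpin into a duplex, and an Argonaute protein (AGO1 to AGO4) takes up a single strand of it. AGO2 is the Argonaute known for slicing matched targets, as an siRNA requires, and TNRC6A (GW182) links Argonautes to the deadenylases and decapping enzymes that repress a microRNA target.

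Levels are given as normalized log2 intensities, the log2 of the spot brightness after background subtraction and quantile normalization across all arrays from 1 time point. A difference of 1 on this scale is a doubling. A change was called when limma gave an adjusted p below 0.01 (Benjamini-Hochberg, over all genes tested) and the log2 fold change was 0.5 or more in size. Because the array version changed from 24 h to 48 h, a level at 24 h is not compared with a level at 48 h, and the level of a gene is not compared with that of another. Whether fewer cells held a transcript or each cell held less of it cannot be told apart in bulk RNA.

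Median intensities lay between 24.4 and 57.2 at 24 h, and 58.5% to 71.7% of spots were rated well above background there, against 60.3% to 66.5% at 48 h. No spot was saturated. The LNCaP markers KLK3, KLK2, TMPRSS2, FOLH1, HOXB13, KRT8 and KRT18 were well above background on every array used. Of 9 markers of other cells, the stromal COL1A2 and the basal KRT5 were so on no array, whereas the leukocyte gene PTPRC was so on all of them. The others were rated so on some or all arrays, for example the macrophage gene CD68 and the endothelial gene PECAM1 on all 12 arrays of 24 h, the basal KRT14 on 10 of 12 and 10 of 11, and the stromal DCN on 2 of 12 and 11 of 11. The TAPIR-2 probe lay between 4.81 and 5.28 after si-SCRL, between 4.19 and 4.95 after si-A1 and between 3.12 and 4.70 after si-A2 at 24 h, so the si-A2 arrays were all below the control arrays while those of si-A1 overlapped them. Only 2 of the 4 si-A2 spots were rated well above background, and all 8 others were. At 48 h the same probe overlapped between the 3 groups, with medians of 4.57, 4.91 and 4.60, and TAPIR-1 itself had no matched probe. A second TAPIR-2 probe, read at 48 h, was well above background on 0 arrays, with medians of 2.53, 1.76 and 2.21. On these arrays a lower signal of a target was thus seen only for TAPIR-2 at 24 h, with 1 dim probe and without a test. The study itself reported lower levels of both targets by qPCR in LNCaP cells, at a later time after transfection.

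None of the 10 genes was called in any comparison. At 24 h the limma count was 0 of 10 for si-A1 against si-SCRL, where 1.03% of all genes were called, 0 of 10 for si-A2 against si-SCRL (0.903% of all genes) and 0 of 10 for si-A2 against si-A1 (0.308%). At 48 h it was 0 of 10 for si-A1 against si-SCRL, where 5.82% of all genes were called, 0 of 10 for si-A2 against si-SCRL (0.443%) and 0 of 10 for si-A2 against si-A1 (1.36%). At an unadjusted p below 0.05 the limma counts were 1, 1 and 2 of 10 in the comparisons of 24 h, against 12.4%, 11.1% and 10.7% of all genes. At 48 h they were 2, 1 and 2 of 10, against 28.2%, 17.3% and 18.1% of all genes. A count of 1 or 2 in 10 is near or below these shares. With an adjusted p below 0.05 and no limit on size, the counts of 24 h were 0, 0 and 0 of 10 (2.09%, 1.69% and 1.16% of all genes). Those of 48 h were 2 of 10 after si-A1 (TARBP2 and DROSHA, beside 15.2% of all genes), 1 of 10 after si-A2 (TARBP2, beside 2.68%) and 0 of 10 between the siRNAs (4.64%).

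The values behind these counts were narrow for most of the genes. The residual SD of a gene ranged from 0.08 to 0.35 at 24 h and from 0.07 to 0.32 at 48 h, and 8 of the 10 were below the median of all genes at either time point (0.33 and 0.23). The median log2 fold change over the 10 genes at 24 h was 0.15 for si-A1 and -0.08 for si-A2, where it was 0.05 over all genes for either siRNA. At 48 h it was -0.02 and -0.06, against 0.06 and 0.01 over all genes. The 95% confidence interval of the change lay within 1 in either direction for 9 of 10 genes after si-A1 and 10 of 10 after si-A2 at 24 h, and for 10 of 10 after either siRNA at 48 h. It lay within 0.5 in either direction for 4 of 10 genes after either siRNA at 24 h and for 6 and 7 of 10 at 48 h.

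**Figure D1:**
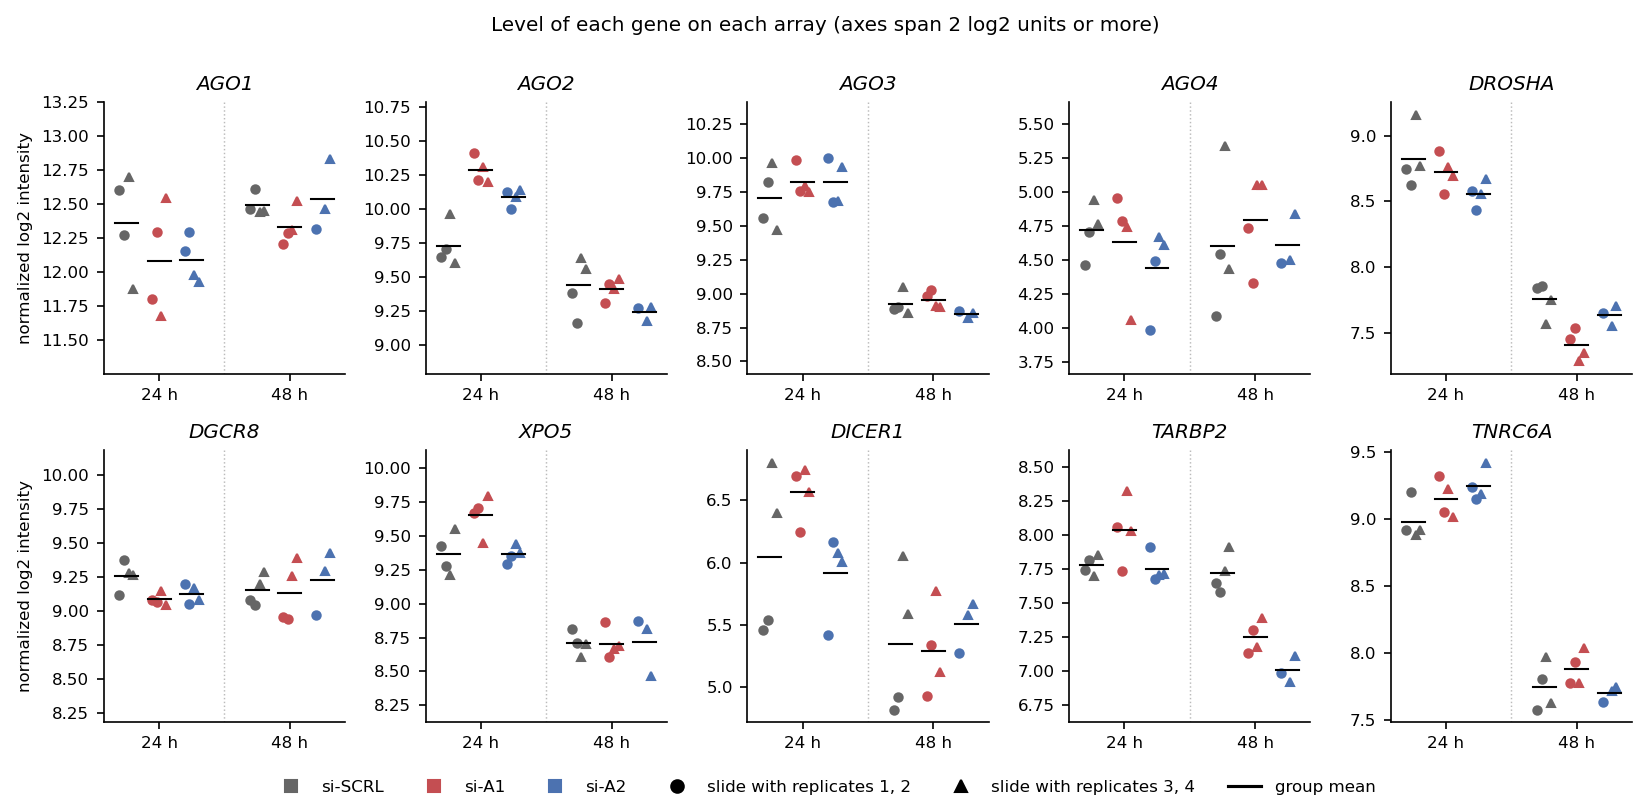
Normalized log2 intensity (y axis) of each of the 10 genes on each array, by siRNA and time point (x axis); circles and triangles are the slides with replicates 1, 2 and 3, 4, and black bars are group means. The AGO2 groups of 24 h are separate, TARBP2 is lower after both siRNAs at 48 h, and DICER1 differs between the slides.

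**Figure D2:**
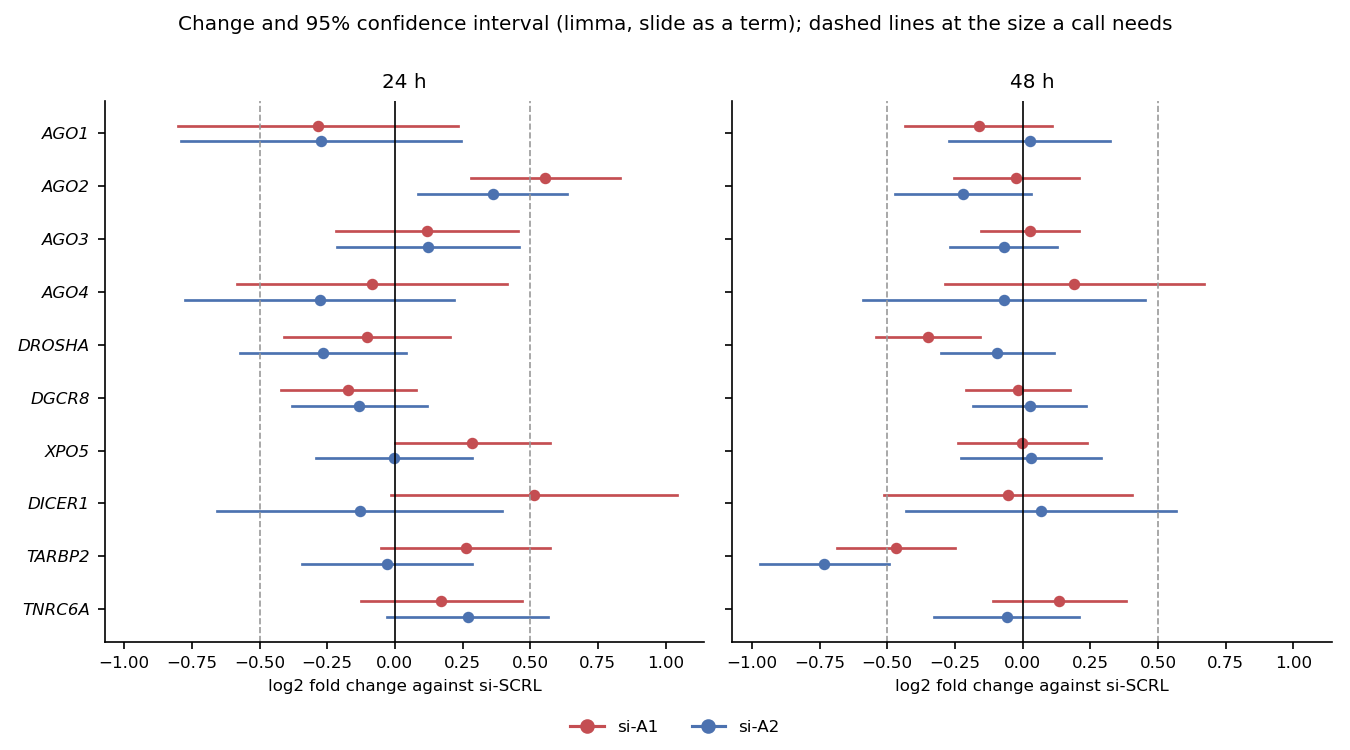
Log2 fold change against si-SCRL (x axis) with its 95% confidence interval for each gene (y axis) at 24 h (left) and 48 h (right), from limma with the slide as a term. Dashed lines mark the size of 0.5 that a call needs; TARBP2 after si-A2 at 48 h (-0.73) and AGO2 (0.55) and DICER1 (0.51) after si-A1 at 24 h lie beyond it.

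Among the Argonautes, AGO2 (chr8:140520156-140642313) differed most from the control at 24 h. Its normalized log2 intensity after si-SCRL was 9.64, 9.70, 9.96 and 9.61 in replicates 1 to 4. After si-A1 it was 10.41, 10.22, 10.31 and 10.20, and after si-A2 it was 10.13, 10.00, 10.09 and 10.14. Every si-A2 array was above every si-SCRL array and every si-A1 array was above every si-A2 array. AGO2 was 0.55 higher on the log2 scale after si-A1 (SE 0.12, a fold of 1.47 with a 95% interval of 1.21 to 1.78), with a limma adjusted p of 0.0501. After si-A2 it was 0.36 higher (adjusted p = 0.264), and si-A2 differed from si-A1 by -0.19 (adjusted p = 0.692), so neither the separation from the control nor that between the siRNAs passed the threshold. Both comparisons with the control rest on the same 4 si-SCRL arrays. The difference had the same direction on either slide, at 0.64 and 0.47 for si-A1 and 0.39 and 0.33 for si-A2. For si-A1 it was called under 2 of 25 alternative settings. These were spot signals corrected with normexp (0.52, adjusted p = 0.00544) or not corrected for background (0.52, adjusted p = 0.00543). Across all of the settings it lay between 0.50 and 0.64, with a limma adjusted p of up to 0.223.

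The AGO2 probe is printed in 10 spots on every array and those of the other genes in 1. The SD between its unflagged spots within an array had a median of 0.07 at 24 h and of 0.06 at 48 h, which is a spread within arrays and not between samples. The residual SD between arrays was 0.12 at either time point. At 48 h the AGO2 intensities were 9.39, 9.16, 9.64 and 9.56 after si-SCRL, 9.31, 9.45, 9.41 and 9.49 after si-A1, and 9.27, 9.18 and 9.28 after si-A2 in replicates 1, 3 and 4. The control arrays spanned the si-A1 arrays, while the si-A2 arrays lay at the low end of the control. The differences from the control were -0.02 for si-A1 (adjusted p = 0.920) and -0.22 for si-A2 (adjusted p = 0.353). With the dim si-A2 array kept, the second value was -0.96 (SE 0.57, adjusted p = 0.460).

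**Figure D3:**
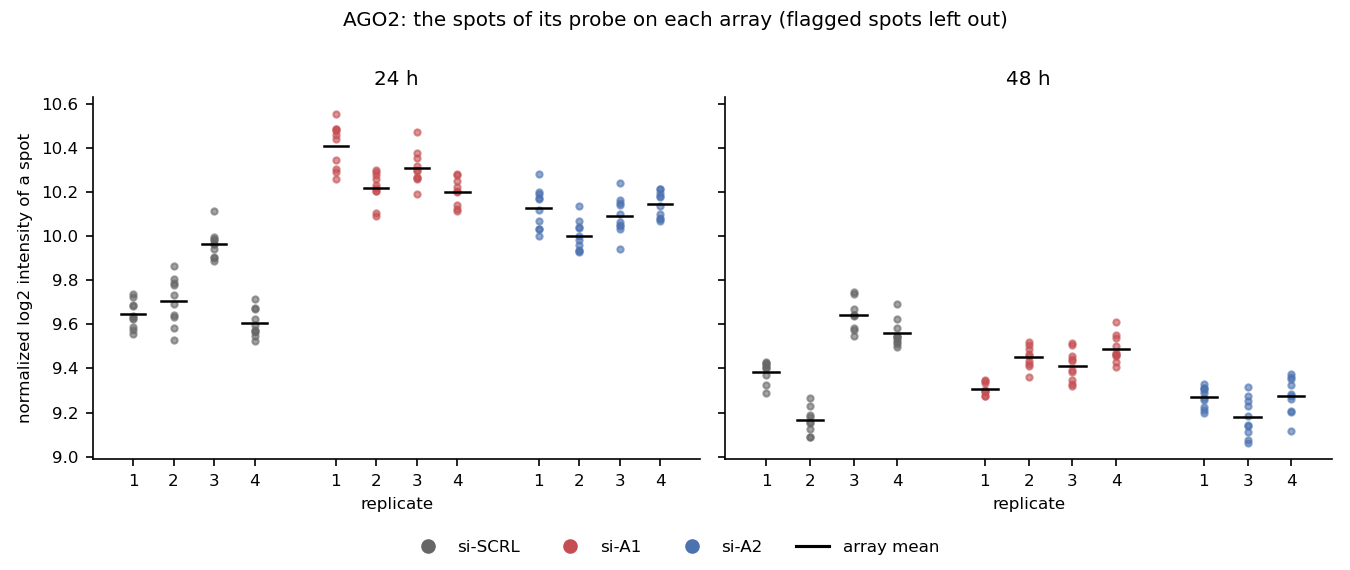
Normalized log2 intensity (y axis) of each unflagged AGO2 spot on each array at 24 h (left) and 48 h (right), by siRNA and replicate (x axis), with the array mean as a bar. At 24 h the array means of si-SCRL lie between 9.61 and 9.96, below all of those of si-A2 (10.00 to 10.14) and of si-A1 (10.20 to 10.41).

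The other Argonaute genes lie side by side on the plus strand of chromosome 1, AGO4 at chr1:35807636-35857890, AGO1 at chr1:35869761-35930532 and AGO3 at chr1:35930718-36072500. Together they span 264865 bp, and AGO1 ends 185 bp before AGO3 starts. For none of them were the siRNA groups apart from the control at either time point, as they were for AGO2 at 24 h. AGO1, an Argonaute of the microRNA route without strong slicing, differed from the control by -0.28 with si-A1 and -0.27 with si-A2 at 24 h (SE 0.23, adjusted p = 0.631 and 0.723), with control arrays from 11.88 to 12.70 that spanned all si-A2 arrays and overlapped those of si-A1. Its second probe gave -0.15 and -0.09. At 48 h the brighter AGO1 probe gave -0.16 and 0.03 and the second -0.10 and -0.03.

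AGO3 differed from the control by 0.12 after either siRNA at 24 h (SE 0.15) and by 0.03 and -0.07 at 48 h. Its other probe gave 0.29 and 0.22 at 24 h and 0.13 and -0.21 at 48 h, with the same signs and no call. At 48 h the AGO3 arrays lay close together, between 8.86 and 9.05 after si-SCRL and between 8.82 and 8.87 after si-A2, which gave the narrowest intervals of the set (-0.15 to 0.21 after si-A1). AGO4 was near the background. Its probe was well above background on 10 of the 12 arrays at 24 h and on all 11 at 48 h, and its log2 fold changes against the control were between -0.28 and 0.19 with SEs of 0.21 to 0.23.

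DROSHA (chr5:31400494-31532093, minus strand), the nuclease of the nuclear step, was at lower intensities after si-A1 than after si-SCRL at 48 h, without being called. Its normalized log2 intensity was 7.84, 7.86, 7.56 and 7.75 after si-SCRL, 7.45, 7.53, 7.28 and 7.34 after si-A1, and 7.65, 7.55 and 7.70 after si-A2. All 4 si-A1 arrays were below every array of the other groups, and the si-A2 arrays lay within the range of the control except for 1 just below it. The log2 fold change was -0.35 after si-A1 (SE 0.08, adjusted p = 0.0246) and -0.09 after si-A2 (SE 0.09, adjusted p = 0.663). The difference of si-A2 from si-A1 was 0.26 (adjusted p = 0.173), so the siRNAs were not shown to differ. Within the slides the si-A1 change was -0.36 and -0.34. With the dim array kept, the si-A2 change was -1.31 with an SE of 0.90. At 24 h DROSHA differed from the control by -0.10 with si-A1 and -0.27 with si-A2 (adjusted p = 0.528).

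DGCR8 (chr22:20080241-20111872, plus strand), the RNA-binding partner that holds the primary transcript for DROSHA, was the most even of the 10 genes at 24 h, with a residual SD of 0.08. It differed from the control by -0.17 with si-A1 and -0.13 with si-A2 at 24 h, and -0.02 and 0.03 at 48 h, where the 95% intervals were -0.21 to 0.17 and -0.18 to 0.23. The gene is itself a host of microRNA hairpins that DROSHA and DGCR8 are known to cut from its own transcript. Of the mature microRNAs listed in RefSeq, 3 lie within DGCR8 on its strand, at chr22:20085797-20085818, chr22:20086072-20086093 and chr22:20086112-20086129, and they are shown with the seed, bases 2 to 8 from the 5′ end, in capitals.
hsa-miR-3618: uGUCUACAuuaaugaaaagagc
hsa-miR-1306-5p: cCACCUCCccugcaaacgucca
hsa-miR-1306-3p: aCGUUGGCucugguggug
These 3 seeds are all different. The arrays did not measure the mature microRNAs, and the DGCR8 values are for the host transcript as its probe sees it.

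XPO5 (chr6:43522334-43576038, minus strand), the exporter of hairpin precursors, was measured by 3 probes. The brightest gave 9.43, 9.28, 9.21 and 9.55 after si-SCRL, 9.67, 9.70, 9.45 and 9.79 after si-A1 and 9.29, 9.35, 9.44 and 9.38 after si-A2 at 24 h, as normalized log2 intensities. The si-A1 arrays were all above the si-A2 arrays, by very little between the nearest ones, and overlapped the control. The log2 fold change was 0.29 after si-A1 (adjusted p = 0.405), -0.003 after si-A2 and -0.29 for si-A2 against si-A1 (adjusted p = 0.466). The other probes gave -0.44 and -0.20 for si-A2 against si-A1, the same direction, 0.11 and 0.10 for si-A1 against si-SCRL, and -0.33 and -0.10 for si-A2 against si-SCRL, where the brightest probe was near 0. The brightest probe at 48 h gave -0.001 and 0.03 against the control, and all 3 probes together lay between -0.10 and 0.11.

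DICER1 (chr14:95086228-95158010, minus strand), which makes the mature duplex, had the largest residual SD of the set at 24 h (0.35), and its control arrays differed between the slides. At 24 h its normalized log2 intensity after si-SCRL was 5.46 and 5.54 on the slide with replicates 1 and 2 and 6.80 and 6.39 on the slide with replicates 3 and 4. After si-A1 it was 6.69, 6.25, 6.74 and 6.57, and after si-A2 it was 5.42, 6.17, 6.08 and 6.01. The si-A1 arrays were close together and above every si-A2 array, and the control arrays were split by the slide. The log2 fold change after si-A1 was 0.51 (SE 0.24, adjusted p = 0.418), made of 0.97 on the slide with replicates 1 and 2 and 0.06 on the other. After si-A2 the direction itself differed between the slides, at 0.29 and -0.56, with -0.13 overall. The difference of si-A2 from si-A1 was more even, at -0.68 and -0.61 within the slides and -0.65 in the fit (SE 0.24, adjusted p = 0.324). Later, at 48 h, the differences were -0.05 and 0.07, again of opposite sign on the slides for either siRNA (0.26 and -0.37 after si-A1, 0.40 and -0.20 after si-A2). Like DGCR8, the gene holds a microRNA hairpin on its own strand, miR-3173, whose mature arms lie at chr14:95137961-95137982 and chr14:95137923-95137944 and share no seed with those of DGCR8.
hsa-miR-3173-5p: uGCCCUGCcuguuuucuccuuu
hsa-miR-3173-3p: aAAGGAGGaaauaggcaggcca

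TARBP2 (chr12:53500923-53506431, plus strand), the DICER1 partner that also helps to load the Argonaute, had the largest log2 fold changes of the set against the control, at 48 h. Its normalized log2 intensity was then 7.65, 7.58, 7.73 and 7.91 after si-SCRL. It was 7.13, 7.30, 7.18 and 7.39 after si-A1, and 6.98, 6.92 and 7.11 after si-A2 in replicates 1, 3 and 4. All si-A1 arrays were below all control arrays, and all si-A2 arrays were below all si-A1 arrays. TARBP2 was 0.47 lower on the log2 scale after si-A1 (log2 fold change -0.47, SE 0.10, a fold of 0.723 with a 95% interval of 0.621 to 0.841, limma adjusted p = 0.0130). For si-A2 the value was -0.73 on the log2 scale (SE 0.11, a fold of 0.602 with an interval of 0.510 to 0.710, adjusted p = 0.0119). The latter had the size that a call needs and missed its adjusted p of 0.01. The siRNAs differed by -0.26 (95% interval -0.50 to -0.03, adjusted p = 0.220), and both comparisons use the same control arrays.

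The difference had the same direction on either slide, at -0.40 and -0.54 for si-A1 and -0.63 and -0.81 for si-A2. For si-A2 it was called under 5 of 25 alternative settings, among them no background correction (-0.57, adjusted p = 0.00184) and a filter on the well above background rating (-0.73, adjusted p = 0.00664). Across all of these settings it lay between -0.95 and -0.51, the former with the dim array kept (SE 0.26, adjusted p = 0.460). At 24 h TARBP2 was 7.74, 7.81, 7.70 and 7.85 after si-SCRL, 8.06, 7.74, 8.33 and 8.03 after si-A1, and 7.91, 7.67, 7.70 and 7.71 after si-A2. These groups overlapped, with log2 fold changes of 0.26 (adjusted p = 0.482) and -0.03 (adjusted p = 0.960).

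TNRC6A (chr16:24610205-24826218, plus strand), the GW182 scaffold that Argonautes bind to, was not called and overlapped between the control and either siRNA at both time points. The log2 fold changes were 0.17 after si-A1 and 0.27 after si-A2 at 24 h (SE 0.13, adjusted p = 0.613 and 0.510). At 48 h they were 0.14 and -0.06, with 95% intervals of -0.11 to 0.38 and -0.33 to 0.21.

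Groups that do not overlap were counted as well, without a test. At 24 h this held for 1 of 10 genes (AGO2) for si-A1 against si-SCRL, where it held for 8.87% of all genes, and for 1 of 10 (AGO2) for si-A2 against si-SCRL (7.25% of all genes). It held for 3 of 10 (AGO2, DICER1 and XPO5) for si-A2 against si-A1 (9.99%). At 48 h it held for 2 of 10 (DROSHA and TARBP2) for si-A1 against si-SCRL (14.9%) and for 1 of 10 (TARBP2) for si-A2 against si-SCRL (10.7%). The siRNAs themselves were separate in 5 of 10 genes at 48 h (AGO2, AGO3, DROSHA, TARBP2 and TNRC6A), where 13.9% of all genes were. In that comparison si-A2 had 3 arrays, and 2 of 10 genes (DROSHA and TARBP2) had an unadjusted p below 0.05 in limma. That share was 18.1% over all genes.

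The change of an effect between the time points was tested in 1 model over the probes on both array versions. None of the 10 genes was called by limma, either for si-A1, where 0.175% of 30247 genes were, or for si-A2 (0.0463%). At an unadjusted p below 0.05 there were 2 of 10 genes for either siRNA, AGO2 and TARBP2, against 12.7% and 7.32% of all genes. The si-A1 effect on AGO2 was 0.57 lower at 48 h than at 24 h (interaction -0.57, SE 0.15, adjusted p = 0.0906), and the si-A2 effect differed by -0.58 (SE 0.16, adjusted p = 0.280). For TARBP2 the interaction was -0.71 for si-A1 (SE 0.16, adjusted p = 0.0478) and -0.69 for si-A2 (SE 0.17, adjusted p = 0.196). None of these differences between the time points passed the threshold for a call. Time point and array version cannot be told apart here.

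**Figure D4:**
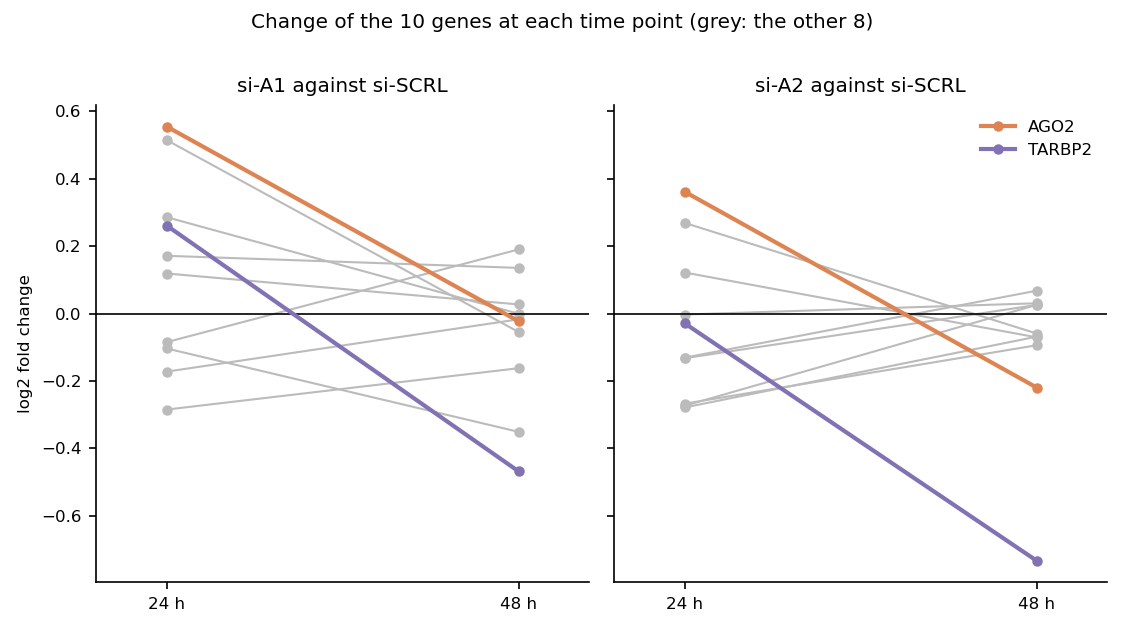
Log2 fold change against si-SCRL (y axis) of the 10 genes at 24 h and 48 h (x axis) after si-A1 (left) and si-A2 (right). AGO2 had 0.55 and 0.36 at 24 h and -0.02 and -0.22 at 48 h, and TARBP2 had 0.26 and -0.03 and then -0.47 and -0.73, while the other 8 genes lay between -0.35 and 0.51.

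Around the 10 genes, 105 other genes of the small RNA routes were listed, of which 95 had a value at 24 h and 93 at 48 h. At 24 h, 4 of the 95 were called after si-A1 (4.21%, beside 1.03% of all genes) and 2 after si-A2 (2.11%, beside 0.903%), all lower. MCM7 and SMC4, listed only as hosts of microRNAs, were both of the si-A2 calls and 2 of the 4 si-A1 calls. None of the 95 was called between the siRNAs (0.308% of all genes). There 24 had an unadjusted p below 0.05 in limma, beside 10.7% of all genes. At 48 h, 15 of 93 (16.1%) were called after si-A1, all lower, beside 5.82% of all genes. After si-A2, 2 of 93 (2.15%, beside 0.443% of all genes) were called, both lower. Between the siRNAs 7 of 93 (7.53%, beside 1.36%) were called, with si-A2 the higher. SMC4 was 1 of the calls in each comparison of 48 h, and MCM7 was 1 of the 15 after si-A1. The median of the list was -0.12 and -0.04 at 24 h and -0.20 and -0.12 at 48 h after si-A1 and si-A2, beside 0.05, 0.05, 0.06 and 0.01 over all genes. The lists were chosen with earlier results of these data in view, so their shares are a description. All genes here include the entries without a gene name, so they are not a like set for these named genes. The LNCaP marker KLK2, an androgen target, was also called lower after si-A1 at 48 h (-1.07, adjusted p = 0.000977), and KLK3 was at -0.87 (adjusted p = 0.0198). Their part in these counts was not tested. No marker of another cell was called, with values of 0.83 for CD68 after si-A2 at 24 h and 0.74 for DCN after si-A2 at 48 h (adjusted p = 0.153 and 0.0655). TP63, which the naming rule also gives, was well above background on 1 of 11 arrays at 48 h, and at 24 h it was at 0.71 after si-A2 (adjusted p = 0.194).

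By role, the nuclear cofactors of DROSHA had 1 of 10 measured genes called after si-A1 at 48 h, HNRNPA2B1 (-1.11, adjusted p = 0.000726), which binds marked primary transcripts. It had -0.71 after si-A2 (adjusted p = 0.0319). In the same list METTL3, which methylates primary transcripts, had -0.60 after si-A1 at 48 h (adjusted p = 0.137). Its mean of 3.77 there lay within the range of the background threshold over the arrays of 48 h (1.78 to 3.85). ZC3H12A, an RNase that cuts precursor loops, had 0.50 after si-A1 at 24 h (adjusted p = 0.102). Of the partners of DICER1 and of nuclear export, 2 of 11 were called after si-A1 at 48 h. RAN, the GTPase that drives export by XPO5, changed by -1.23 (adjusted p = 0.000125) and XPO1, an exporter of other cargo, by -0.60 (adjusted p = 0.00442). RAN was called higher by 0.73 after si-A2 than after si-A1 (adjusted p = 0.00824). LIN28B, which blocks the maturation of let-7, and the ubiquitin ligase TRIM71 were not called and were at -0.67 and 0.68 after si-A2 at 24 h, with SEs of 0.33 and 0.38. LIN28B was near the background threshold there (2.03 to 3.02), with means of 3.26 in the control and 2.59 after si-A2.

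Chaperones and slicing cofactors of the Argonaute complex held 5 of the 15 calls after si-A1 at 48 h, among 14 measured genes. FKBP5, a co-chaperone of HSP90 that is also a known androgen target, changed by -1.86 (adjusted p = 0.000459) and PTGES3, the HSP90 co-chaperone p23, by -1.43 (adjusted p = 0.000144). GEMIN4 (-0.78), HSPA4 (-0.57) and TSNAX (-0.85) were also lower. TSNAX encodes translin-associated factor X, and together with its partner TSN it forms the complex known to clear the passenger strand of an siRNA. The subunits were called in different comparisons. At 48 h TSN had a mean of 8.15 ± 0.08 (SD, n = 4) in the control, 7.80 ± 0.08 (SD, n = 4) with si-A1 and 7.32 ± 0.02 (SD, n = 3) with si-A2, and was called lower after si-A2 (-0.84, adjusted p = 0.00415) and not after si-A1 (-0.35, adjusted p = 0.0196). TSNAX was at 8.19 ± 0.21 (SD, n = 4), 7.34 ± 0.08 (SD, n = 4) and 8.30 ± 0.11 (SD, n = 3), and was called lower after si-A1 than in the control and higher with si-A2 than with si-A1, the latter by 0.95 (adjusted p = 0.00537). For TSN the difference of si-A2 from si-A1 was -0.49 and was not called (adjusted p = 0.0172). With the replicate block, with only the groups compared or with the dim array kept, 0 of all genes were called by limma for si-A2 against si-SCRL at 48 h, so the calls of TSN and SMC4 in that comparison are lost there. The calls between the siRNAs at 48 h are likewise lost in the latter 2 settings. At 24 h the same genes had the same signs without a call, with TSN at -0.89 after si-A2 (adjusted p = 0.0107) and TSNAX at -0.74 after si-A1 (adjusted p = 0.0333).

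Of the P-body factors around TNRC6A, EDC3 and LIMD1 were called after si-A1 at 24 h, 2 of 12. EDC3, an enhancer of decapping, changed by -0.78 (adjusted p = 0.00480) and again by -0.68 at 48 h (adjusted p = 0.00214). LIMD1, a LIM protein that binds Argonautes, changed by -1.18 at 24 h (adjusted p = 0.00570) and was at -0.51 at 48 h (adjusted p = 0.0277). AJUBA, a LIM-domain relative of LIMD1, was at -0.93 after si-A2 at 48 h (adjusted p = 0.0219), and PATL1 at -0.81 (adjusted p = 0.150). Among deadenylation and decapping genes, 3 of 22 were called after si-A1 at 48 h. The decapping enzyme DCP2 changed by -1.97 (adjusted p = 6.09e-05), and the CCR4-NOT subunits CNOT7 and CNOT9 by -0.72 and -0.71 (adjusted p = 0.00220 and 0.00393). DCP2 was also called between the siRNAs, with si-A2 higher by 1.48 (adjusted p = 0.00167). It had -2.70 after si-A1 at 24 h with an SE of 0.52 (adjusted p = 0.0216), where its mean of 3.18 ± 1.17 (SD, n = 4) was near the background threshold.

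Of 12 measured genes of small RNA turnover, the PIWI family and Argonaute regulation, only PNPT1, a 3′ exoribonuclease known to degrade mature microRNAs, was called after si-A1 at 48 h (-0.65, adjusted p = 0.00121). The exonuclease ERI1 had -0.97 (adjusted p = 0.0126) and P4HA1, a subunit of the enzyme that hydroxylates AGO2, -0.74 (adjusted p = 0.0453). The ERI1 mean after si-A1 was 3.95, near the background threshold of 48 h (1.78 to 3.85 over the arrays). PIWIL4 had 0.80 after si-A2 at 24 h with an SE of 0.41 (adjusted p = 0.517). Its means of 1.84 in the control and 2.64 after si-A2 were at the background threshold, which was 2.03 to 3.02 over the arrays.

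**Figure D5:**
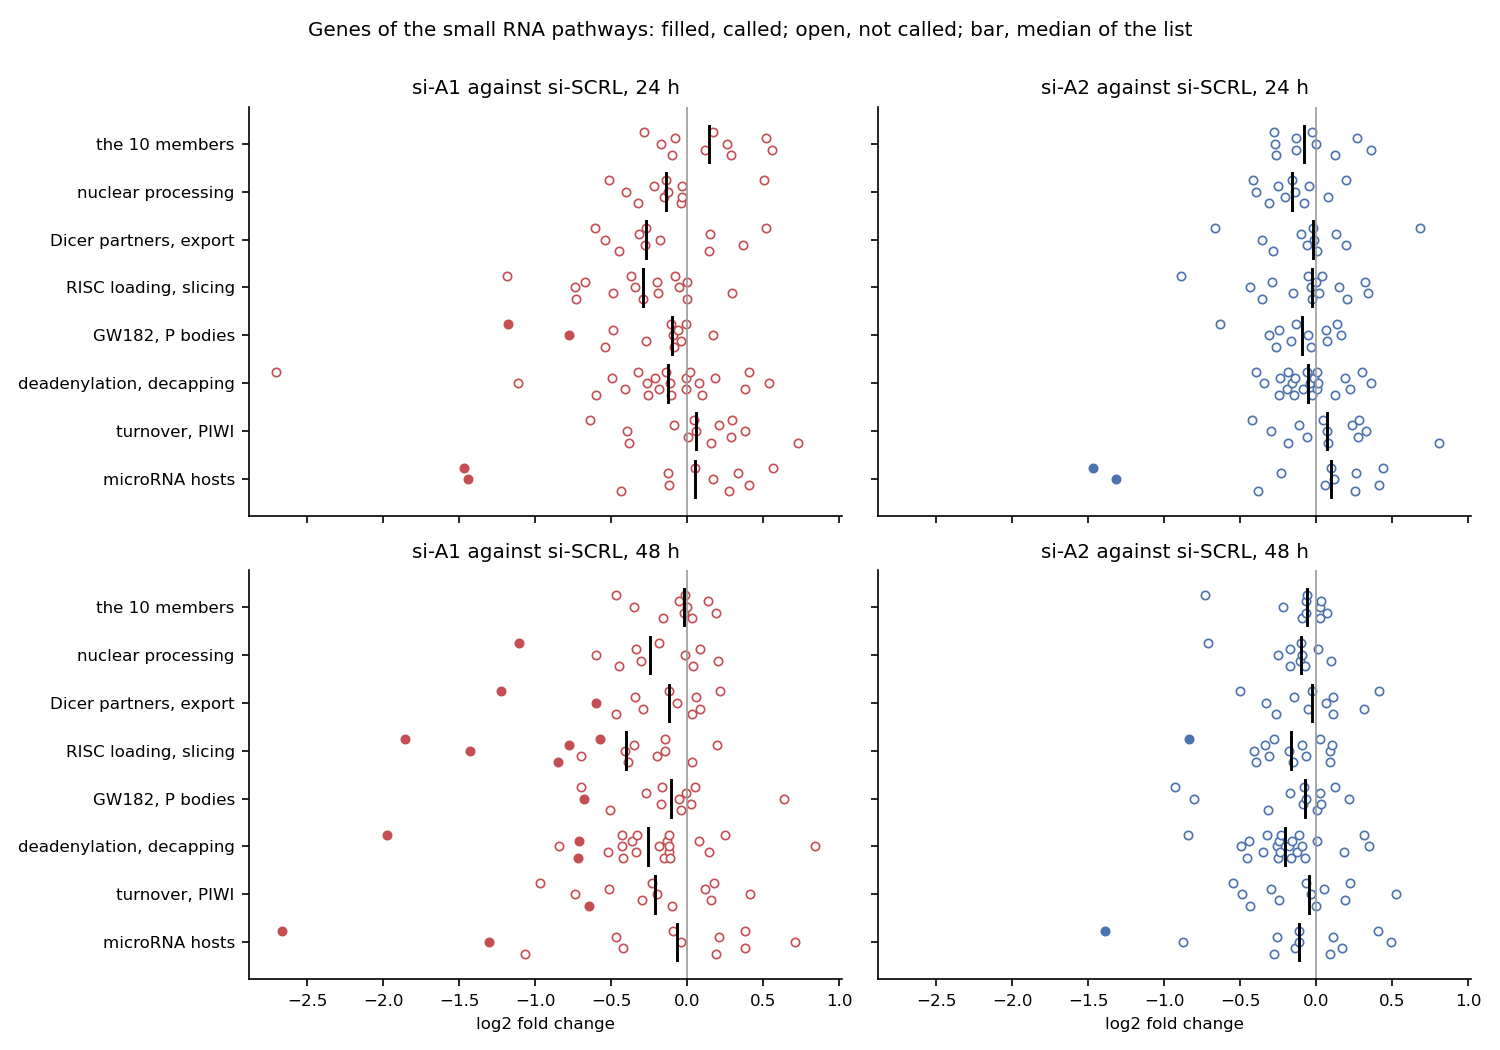
Log2 fold change against si-SCRL (x axis) of every measured gene of the small RNA lists (y axis) for si-A1 (left) and si-A2 (right) at 24 h (top) and 48 h (bottom); filled points were called, open points were not, and bars are list medians. The 10 members hold no filled point, and after si-A1 at 48 h all 15 filled points lie below 0.

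Of 19 microRNA host transcripts listed, 11 were measured at 24 h and 12 at 48 h, and the calls were in 2 protein-coding genes, MCM7 and SMC4. MCM7, a helicase subunit of DNA replication, had a mean of 11.28 ± 0.32 (SD, n = 4) in the control, 9.84 ± 0.24 (SD, n = 4) with si-A1 and 9.81 ± 0.20 (SD, n = 4) with si-A2 at 24 h. It changed by -1.44 (adjusted p = 0.00252) and -1.47 (adjusted p = 0.00216). SMC4, a condensin subunit of mitotic chromosomes, changed by -1.47 (adjusted p = 0.000440) and -1.32 (adjusted p = 0.000842). At 48 h MCM7 changed by -1.30 after si-A1 (adjusted p = 0.000496) and was at -0.88 after si-A2 (adjusted p = 0.0217). SMC4 changed by -2.67 (adjusted p = 4.94e-05) and -1.39 (adjusted p = 0.00706), the former being the largest called change of all 7 lists. Both are genes of proliferating cells, and what moved is their own mRNA. MIR600HG, the next in size, was at -1.07 after si-A1 at 48 h (adjusted p = 0.0148). Its mean of 3.63 there lay within the range of the background threshold over the arrays (1.78 to 3.85).

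The mature microRNAs that lie in these 2 genes, on the same strand, are shown in part, because they include families with a shared seed. MCM7 holds those of chr7:100093571-100094063 and SMC4 those of chr3:160404607-160404818. A single arm of each hairpin, 5′ or 3′, is given below, grouped by its seed in capitals. The opposite arms are left out, and their seeds are all different. The first pair has the seed AAAGUGC, the next microRNA the seed AUUGCAC and the last pair the seed AGCAGCA.
hsa-miR-93-5p: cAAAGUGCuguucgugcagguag
hsa-miR-106b-5p: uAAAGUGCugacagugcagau
hsa-miR-25-3p: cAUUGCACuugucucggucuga
hsa-miR-15b-5p: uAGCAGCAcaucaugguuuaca
hsa-miR-16-5p: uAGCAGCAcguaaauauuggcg
The levels of these microRNAs themselves were not measured on the arrays.

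The promoters of TARBP2 and DROSHA are shown because these genes had the lowest fold changes of the set after si-A1 at 48 h. After si-A2 AGO2 (-0.22) was lower than DROSHA (-0.09). They were read from RefSeq as the 250 bases before a transcript start, which the table gives for 9 of the 10 genes (not for AGO2) and 15 starts. All were searched for CCAAT on both strands, the motif of the factor NF-Y, and the matches are in capitals. TARBP2 (chr12:53500673-53500922, plus strand) and DROSHA (chr5:31532094-31532343, minus strand) have 3 matches each, none overlapping another.
TARBP2: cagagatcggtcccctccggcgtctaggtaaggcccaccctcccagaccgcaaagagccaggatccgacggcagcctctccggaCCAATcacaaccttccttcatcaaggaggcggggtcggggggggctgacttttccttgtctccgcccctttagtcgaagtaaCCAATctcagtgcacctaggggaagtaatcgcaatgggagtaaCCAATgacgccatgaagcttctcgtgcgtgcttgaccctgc
DROSHA: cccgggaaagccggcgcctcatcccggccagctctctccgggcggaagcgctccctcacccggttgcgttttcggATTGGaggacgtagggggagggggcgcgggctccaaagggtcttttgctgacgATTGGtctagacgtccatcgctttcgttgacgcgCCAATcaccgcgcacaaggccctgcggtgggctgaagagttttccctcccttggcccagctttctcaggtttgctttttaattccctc
At least 3 matches were present in 2.93% of the 35116 promoter windows of the table and at least 1 in 32%. DGCR8, at -0.02 and 0.03 against the control at 48 h, has 4. Both TARBP2 and DROSHA were chosen after their values were seen, and TARBP2 has other starts with 0 and 1 matches. TTTGAA or TTCGAA, the letters of the CHR element of cell cycle genes, were found before 1 of the 15 starts (of DICER1) and in 14.3% of all windows. The letters TTTCCCGC, TTTGGCGC, TTTCGCGC and TTTGCCGC, bound by E2F factors, were found before none of the 15 and in 2.79% of all windows.

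For each of the 10 genes, the 2 named genes with the most similar pattern over the 12 arrays of 24 h were looked up among 19475. The Pearson correlations lay between 0.887 and 0.979, as the highest of so many must be high, and the arrays share slides and normalization. Over the 11 arrays of 48 h the same 20 pairs lay between -0.58 and 0.92, with 5 above 0.5 and 6 below 0. The 5 pairs above 0.5 at both were AGO1 with TFEB (0.942 and 0.925), AGO1 with SOX13 (0.979 and 0.785), DGCR8 with IGSF3 (0.951 and 0.691), XPO5 with C11orf42 (0.920 and 0.680) and AGO2 with MINPP1 (0.948 and 0.557). The AGO1 pairs rest on its brighter probe, with a mean of 12.18 at 24 h, and its second probe (6.74) was not searched. In replicate 4 at 24 h these probes lay at opposite ends of each siRNA group. The brighter had 11.88, 12.54 and 11.93 after si-SCRL, si-A1 and si-A2, and the second 7.01, 6.45 and 6.90. The AGO1 likeness is thus that of a single probe. The best of TARBP2 was RABEP2 (0.949 and -0.19), so for TARBP2 the likeness at 24 h was not present at 48 h.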

How the data were processed

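Per the labels, Cy3-labelled cRNA was hybridised to SurePrint arrays, which the authors quantified in Agilent Feature Extraction 11.5.1.1. The deposited processed signal is a background-subtracted intensity on a linear scale, not normalized between arrays. The authors also deposited log2 values per time point, used as an alternative. Their processing notes name R 3.4.3 and limma 3.34.8.

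Here log2 intensities were quantile-normalized within a time point, control spots and flagged outlier spots were left out, and repeated spots averaged. A probe was kept if, on 3 or more arrays, it exceeded the negative controls (308 spots) by 3 SDs over their mean, and the brightest kept probe stood for its gene. The interquartile filter of the study's methods was an alternative, since it leaves 1 of the 10 genes. R 4.3.3 and limma 3.58.1 fitted the 3 groups of a time point with the slide as a term, and the interaction over 23 arrays normalized together. Other settings tried are given with their effect below. The number of arrays limits the precision. The script was tested on simulated data with the residual SDs of the genes tested and known changes after si-A1. For si-A1 against si-SCRL, 0 of 67 genes changed by 0.5 were called at either time point. Of those changed by 1, 13 of 67 were called at 24 h and 26 of 67 at 48 h. A change of the size that a call needs can thus go uncalled. Fewer genes were changed in the simulation than were called after si-A1 here, which makes its adjusted p stricter. It also used the SDs of all genes, while 8 of the 10 genes were below their median. The share that would be called among the 10 genes was not simulated.

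The 10 genes and all lists were chosen with earlier results of these data known. All 10 were named, with the list genes called somewhere (some LNCaP markers are not reported here) and, in lists with fewer than 3 of those, the 3 with the largest change. The files hold median and no mean spot signals, so the background alternatives used medians. Sites of the probes within transcripts are not given in the sources used here.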

Additional observations from a re-analysis of the deposited data

Results flagged for a closer look

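In 3 of 50 groups of 4 arrays examined (one gene, siRNA and time point each), 1 array stood apart from the other arrays of its group by more than Dixon's test allows at the 95% level, and chance flags about 1 in 20 groups. AGO1 was at 12.61 in si-SCRL replicate 2 at 48 h, with the nearest array of the group at 12.47. TARBP2 was at 7.91 in si-A2 replicate 1 at 24 h, with the nearest at 7.71. TNRC6A was at 9.20 in si-SCRL replicate 2 at 24 h, with the nearest at 8.92. These are normalized log2 intensities. None of these genes was called in any comparison with or without the array named.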

How the results depend on the processing

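The count of the 10 genes called was 0 in each of the 6 comparisons and both interactions, and it stayed at 0 with each array left out in turn (range 0 to 0). Of 2106 recomputed values of single genes, 2093 kept their direction and side of the threshold, where the direction of a value smaller than its SE was not counted. The count became 1 for si-A1 against si-SCRL at 24 h with normexp or with no background correction (AGO2). It became 1 for si-A2 against si-SCRL at 48 h with normexp, no background correction, the slide as a random block, the filter on the well above background rating and an adjusted p below 0.05 (TARBP2, at -0.51, -0.57, -0.73, -0.73 and -0.73). It became 1 for the si-A1 interaction at an adjusted p below 0.05 (TARBP2, -0.71). The setting with an adjusted p below 0.05 kept the size limit of 0.5, unlike the counts without a limit in the Results. TARBP2 (-0.47) and DROSHA (-0.35) after si-A1 at 48 h are therefore not counted in it. With the dim si-A2 array of 48 h kept, AGO1 turned to -0.46, AGO4 to 0.26 and DROSHA to -0.96 for si-A2 against si-A1, and the si-A2 interaction turned to -0.22 for AGO1 and -0.93 for DROSHA. The cause was not tested for any of these.

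Replicate numbers are shared between the groups. At 24 h only 3 of 12 same-numbered pairs had deviations correlated above 0.1 (median 0.02). At 48 h all 10 did (0.19 to 0.37), and none after the slide was removed (-0.26 to -0.01). Same-numbered arrays share a slide, and removing the slide by itself lowers the correlation of arrays on it. Whether the numbers pair the arrays beyond the slide can thus not be told from these values. With the replicate block in place of the slide, the count stayed at 0 in the 6 comparisons, and over all genes the calls went from 378, 331 and 113 to 251, 239 and 30 at 24 h and from 2194, 167 and 511 to 1424, 0 and 208 at 48 h.

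The number of all genes called moved more, where the setting with an adjusted p below 0.05 again kept the size limit of 0.5. At 24 h the counts of 378 (si-A1), 331 (si-A2) and 113 (si-A2 against si-A1) were 136, 152 and 23 with only the groups compared and 216, 215 and 17 with the interquartile filter. They were 763, 618 and 424 at an adjusted p below 0.05 and 198 to 321, 211 to 326 and 27 to 253 with an array left out. At 48 h the counts of 2194, 167 and 511 were 1132, 93 and 240 without the slide term, 4264, 932 and 1552 at an adjusted p below 0.05 and 23, 0 and 0 with the dim array. The latter 2 were 0 and 0 with only the groups compared, 601 and 834 without background correction, and 1 to 72 and 20 to 443 with an array left out, while that of si-A1 was 1094 to 2291. The si-A2 count was 487 after normexp and 41 with the interquartile filter. The interaction counts, 53 and 14, were 227 and 31 at an adjusted p below 0.05, 24 and 8 without the slide term and 8 to 77 and 3 to 27 with an array left out. Scaling on the 75th percentile put the median change of all genes after si-A1 at 0.13 in place of 0.05 at 24 h and at 0.12 in place of 0.06 at 48 h. Signal over background limits AGO4, which is near the background.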
